A study of Mus musculus with 12 samples.

Results

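The mesonephric duct and epithelial genes are a set of 9 genes chosen by symbol, among 35976 gene symbols counted: the transcription factors *Pax2*, *Pax8*, *Gata3*, *Lhx1* and *Emx2*, the keratins *Krt8*, *Krt18* and *Krt19*, and the adhesion molecule *Epcam*. All 9 symbols were found in the files. The members were chosen with earlier results of these data known. RNA was sequenced from 12 pools of embryonic testis of outbred Swiss (RjOrl) mice at E15.5, and each pool held the testes of 3 embryos. In F1 the mothers received thiacloprid (*thia*, a neonicotinoid insecticide) at 6 mg/kg/day in olive oil by gavage from E6.5 to E15.5, so these embryos were exposed in the womb. F1 control mothers received the oil alone. The F3 pools came from the same 2 kinds of ancestor through the males, crossed in each generation with untreated females, so the F3 embryos were not exposed themselves. Each of the groups F1 control, F1 *thia*, F3 control and F3 *thia* had 3 pools. The litters that the embryos of a pool came from are not given, so the p-values measure the spread between these pools.

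The mesonephric (Wolffian) duct runs beside the fetal gonad, and in males it becomes the epididymis, the vas deferens and the seminal vesicle. *Pax2*, *Gata3* and *Lhx1* are needed to form and extend the duct, where *Pax8* acts with *Pax2*. *Emx2* is needed for the development of the urogenital system. *Krt8*, *Krt18*, *Krt19* and *Epcam* are found in simple epithelia in general, which in and around the gonad include the duct, the tubules beside it and the epithelium on the gonad surface, so no single member marks the duct alone. Because whole organs were pooled, fewer cells of a type and less RNA per cell cannot be told apart in these values.

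The libraries held 25081647 to 68996146 gene counts each (median 42665445), and 1 CPM (counts divided by library size, after TMM adjustment) corresponded to 27.0 to 66.8 counts. Pairs of pools of the same group differed by more than counting noise. The chi-square per degree of freedom was 90.7 and 101 for the pairs with F3 *thia* pool 2, against 17.3 to 42.2 for the other pairs, so that pool stood apart from the rest of its group. In that pool summed blood genes had 83548 CPM and summed Sertoli cell genes 1172 CPM. The other F3 *thia* pools had 45444 and 49858 CPM for blood and 2112 and 2170 CPM for Sertoli cell genes. F1 *thia* pool 2 carried more skeletal muscle RNA, with 684.6 CPM summed over 12 muscle genes against 86.9 to 152.6 CPM in the other F1 pools. F1 and F3 libraries form separate sets, so generation and library set cannot be told apart. Each comparison below used the quasi-likelihood test of edgeR across all genes that passed a low-count filter, with Benjamini-Hochberg adjustment, at the thresholds of the study for the adjusted p, 0.15 in F1 and 0.1 in F3.

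The members fell into 3 ranges of level when CPM was divided by the exon length of the gene. The lengths join all exons of a gene in GENCODE M21, while the paper counted over the UCSC refGene annotation. Levels per kb are therefore approximate. The keratins were the most abundant, with means over the 12 pools of 39.7 CPM per kb for *Krt19*, 31.3 CPM per kb for *Krt8* and 30.8 CPM per kb for *Krt18*. *Emx2*, at 12.2 CPM per kb, and *Epcam*, at 9.62 CPM per kb, followed. The duct transcription factors were far lower, at 1.40 CPM per kb for *Pax8*, 0.371 CPM per kb for *Gata3*, 0.310 CPM per kb for *Pax2* and 0.0698 CPM per kb for *Lhx1*. *Lhx1* was counted with between 2 and 43 reads or read pairs per library, and *Pax2* with between 40 and 147. A pair of further duct genes was also near 0 in most pools. *Wnt9b*, a signal made by the duct epithelium, had 0 to 15 counts in 11 pools, and *Cldn8*, a tight junction protein of duct epithelia, had 0 to 3 counts in 8 pools. Among 30 other genes of the nephric duct and mesonephric tubule programme, 25 had a mean above 1 CPM and 1 had a mean under 0.5 CPM, but many of them are also used by other tissues.

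In GENCODE M21 (mm10), *Pax2* lies at chr19:44756045-44837871 and *Emx2* at chr19:59458372-59465357, both on the plus strand. *Gata3* lies at chr2:9857078-9890034 and *Lhx1* at chr11:84518284-84525535, both on the minus strand. *Krt19* lies at chr11:100140810-100148665 on the minus strand and *Epcam* at chr17:87635979-87651129 on the plus strand. The genes *Pax8*, *Krt8* and *Krt18* are placed with their sequences.

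**Figure D1:**
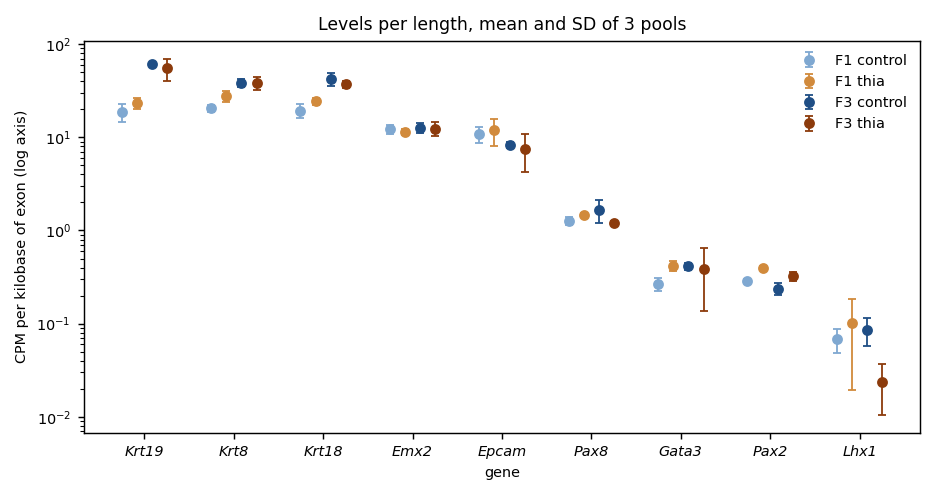
CPM per kilobase of exon on a log axis for each member, with a point for the mean and a bar for the SD of the 3 pools of each group. The keratins lie highest, *Emx2* and *Epcam* next, and the duct transcription factors lowest, with *Lhx1* at the bottom.

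The members also differed in how much they varied. *Emx2* had the narrowest range, and its highest pool exceeded its lowest by 1.39 times. *Pax8* differed by 1.94 times between its extreme pools and *Pax2* by 2.11 times. *Lhx1* differed by 14.0 times, *Krt19* by 4.69 times and *Gata3* by 4.02 times. The SD within groups on the log2 scale was 0.14 for *Pax2*, 0.18 for *Emx2* and *Krt8* and 0.51 for *Gata3*, against a median of 0.16 over the 15392 genes above 1 CPM. F1 control pool 3, the shallowest library, was the lowest of the 12 pools for all 3 keratins.

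**Figure D2:**
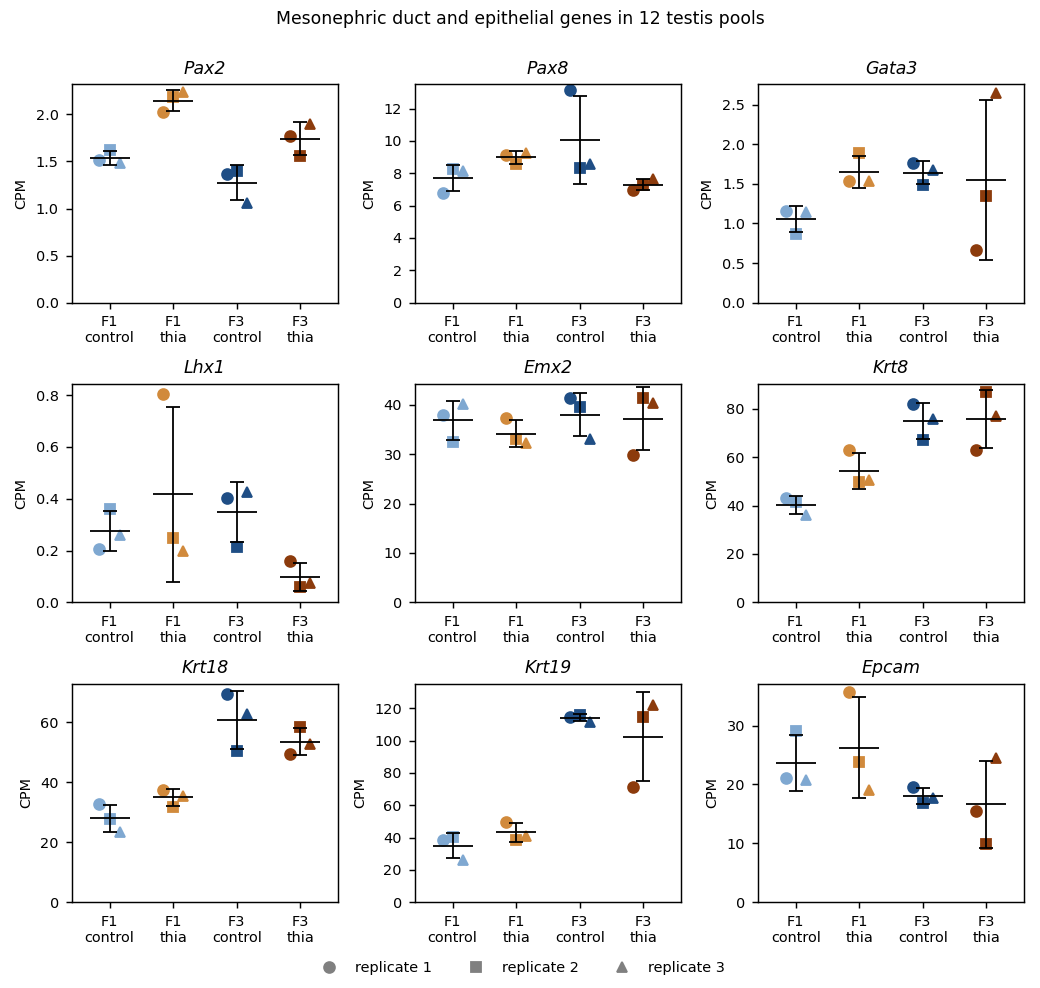
CPM of each member in each pool, in panels that start at 0, with circles, squares and triangles for replicates 1, 2 and 3 and a bar for the mean and SD of the 3 pools. *Pax2* and *Krt8* lie higher in F1 *thia* than in F1 control without overlap, *Pax8* lies higher in F1 *thia* and lower in F3 *thia* than in the controls, and *Krt18* and *Krt19* lie higher in every F3 pool than in any F1 pool.

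In F1, exposed testes had more RNA of several duct and epithelial genes than control testes, but no difference passed the adjusted threshold in edgeR. *Krt8*, *Gata3*, *Pax2* and *Pax8* were higher in every exposed pool than in any control pool. Of the 9 members, 8 had a positive log2 fold change, and their median was 0.34 against 0.01 over all genes tested. In edgeR 0 members were called, as were 0.0105% of all genes tested. At an unadjusted p under 0.05 there were 4 members (*Krt8*, *Gata3*, *Krt18* and *Pax2*), against 8.76% of all genes, and all 4 were higher, against 4.63% of all genes. DESeq2 called 1 member, *Krt8*, where it called 0.985% of the genes. *Lhx1* had no DESeq2 adjusted p there. The groups did not overlap for 4 of the 9 members, against 15.0% of all genes, and all 4 were higher, against 6.55%. The members were chosen with earlier results known, and 28 of their 36 pairs had a positive correlation over these 6 pools. These counts beside the shares of all genes are therefore a description, not a test.

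*Krt8*, a type II keratin of simple epithelia, gave the smallest p of the set in F1. It had 43.1, 41.6 and 36.2 CPM in F1 control pools 1 to 3 and 63.0, 49.6 and 50.4 CPM in F1 *thia* pools 1 to 3. The exposed pools lay above the controls, and exposed pool 1 was the highest. Its log2 fold change was 0.45 (SE 0.12, 95% interval 0.19 to 0.71), with an adjusted p of 0.446 in edgeR and 0.0979 in DESeq2. *Krt18*, the type I keratin that pairs with *Krt8* in filaments, had 32.5, 27.7 and 23.4 CPM in the controls and 37.5, 31.6 and 35.5 CPM in the exposed pools. Here control pool 1 exceeded exposed pool 2, so the groups overlapped. The log2 fold change was 0.34 (SE 0.13, edgeR adjusted p = 0.526). *Krt19*, a type I keratin of simple and ductal epithelia, had 38.7, 40.2 and 26.1 CPM in the controls and 49.8, 38.8 and 40.8 CPM in the exposed pools, with a log2 fold change of 0.31 (SE 0.16, edgeR adjusted p = 0.597). The groups overlapped, and the lowest value was that of control pool 3. Exposed pool 1 was the highest F1 pool for all 3 keratins, and it also had the highest sum over 14 surface epithelium and mesothelium genes, *Krt19* included, at 955 CPM against 721 to 866 CPM in the other F1 pools. The part of this in the keratin values was not tested.

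*Krt8* and *Krt18* lie close together on chromosome 15, *Krt8* at chr15:101996698-102004482 on the minus strand and *Krt18* at chr15:102028180-102032027 on the plus strand, with 23698 bases between their 5′ ends, and they are transcribed away from each other (GENCODE M21, mm10). Their products pair in the same filaments and their RNA was higher together in the F3 controls, so the sequence before the RefSeq start of each is shown. The RefSeq promoters (GRCm38.p6) are given 5′ to 3′ in the direction of the gene, for the 200 bases from 250 to 51 bases before the RefSeq start, at chr15:102004393-102004592 for *Krt8* and chr15:102027966-102028165 for *Krt18*. The RefSeq start of *Krt8* lies inside the GENCODE gene, so part of its window overlaps that gene.
Krt8: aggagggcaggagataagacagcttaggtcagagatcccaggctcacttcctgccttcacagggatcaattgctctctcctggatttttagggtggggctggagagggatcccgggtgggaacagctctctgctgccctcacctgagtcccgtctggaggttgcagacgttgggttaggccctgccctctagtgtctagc
Krt18: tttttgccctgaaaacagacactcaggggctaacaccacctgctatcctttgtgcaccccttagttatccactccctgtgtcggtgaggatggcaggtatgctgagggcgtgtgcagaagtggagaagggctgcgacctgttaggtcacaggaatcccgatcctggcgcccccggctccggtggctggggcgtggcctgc
The sequences hold 58% and 60% G and C. The motifs searched on both strands were the GC box, spelled GGGCGG, the CCAAT box, spelled as its name, and the AP-1 site, spelled TGANTCA. None of them was found in these windows. Among the 32851 RefSeq promoters cut to the same 200 bases, 24.6% held the GC box, 28.4% the CCAAT box and 5.57% the AP-1 site. Promoters were found for 8 of the 9 members, and *Krt19* was not among them.

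*Gata3*, a zinc finger factor that guides the growing duct, had 1.16, 0.869 and 1.15 CPM in F1 control pools and 1.53, 1.88 and 1.54 CPM in F1 *thia* pools. All 3 exposed pools lay above all 3 controls. *Gata3* had a log2 fold change of 0.66 (SE 0.24, 95% interval 0.14 to 1.18, edgeR adjusted p = 0.518). *Pax2*, a paired box factor required to maintain the duct epithelium, had 1.51, 1.62 and 1.48 CPM in the controls and 2.02, 2.18 and 2.24 CPM in the exposed pools. The pools of a group lay close together and the groups did not overlap. The log2 fold change was 0.49 (SE 0.20, 95% interval 0.06 to 0.92, edgeR adjusted p = 0.543).

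*Pax8*, the paralog that acts with *Pax2* in the nephric lineage, had 6.81, 8.23 and 8.12 CPM in F1 control pools and 9.11, 8.55 and 9.28 CPM in F1 *thia* pools. The groups did not overlap, but the gap between the highest control and the lowest exposed pool was small beside the spread of the controls. The log2 fold change of *Pax8* was 0.24 (SE 0.14, edgeR adjusted p = 0.624). *Emx2*, a homeobox factor of the urogenital epithelium, had 38.0, 32.5 and 40.1 CPM in the controls and 37.3, 33.0 and 32.2 CPM in the exposed pools. It was the member with a negative log2 fold change, of -0.09 (95% interval -0.34 to 0.16, edgeR adjusted p = 0.789), and its groups overlapped. A long RNA on the opposite strand, *Emx2os*, overlaps it and had 2.74 to 9.78 CPM. The libraries were strand-specific, but whether counting used strand is not stated.

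*Lhx1* and *Epcam* were high together in 1 exposed pool. *Lhx1*, a LIM homeobox factor of the duct, had 0.207, 0.361 and 0.259 CPM in F1 control pools and 0.805, 0.248 and 0.198 CPM in F1 *thia* pools. *Epcam*, a surface adhesion protein of epithelia and germ cells, had 21.0, 29.0 and 20.7 CPM in the controls and 35.8, 23.8 and 19.1 CPM in the exposed pools. In both genes F1 *thia* pool 1 was the highest of the 12 pools, and the other exposed pools lay within or below the range of the controls. The log2 fold changes were 0.59 (SE 0.55, edgeR adjusted p = 0.734) for *Lhx1* and 0.16 (SE 0.21, edgeR adjusted p = 0.804) for *Epcam*. Without that pool they were -0.33 and -0.13.

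Pool 1 of F1 *thia* also had the highest level of 3 further duct and tubule genes, which were picked for this after their values were seen. *Wnt9b* had 0.992 CPM there and 0 to 0.246 CPM in the other 11 pools. *Cdh16*, a cadherin of kidney and duct epithelium, had 5.48 CPM there and 0.352 to 3.01 CPM elsewhere. *Cldn8* had 1.95 CPM there and 0 to 1.18 CPM elsewhere. The sum over the 30 other genes of the duct and tubule programme did not peak there, at 432 CPM in this pool and 415 to 446 CPM in the other F1 pools. Abundant genes such as *Etv5* and *Itga8*, with means of 36.4 and 39.1 CPM in F1 *thia*, weigh most in that sum. It therefore cannot show a peak of low genes such as *Wnt9b*. *Pax2*, *Pax8* and *Gata3* did not share this peak. In that pool *Pax2* and *Gata3* had the lowest value of the exposed F1 pools and *Pax8* the middle one.

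**Figure D3:**
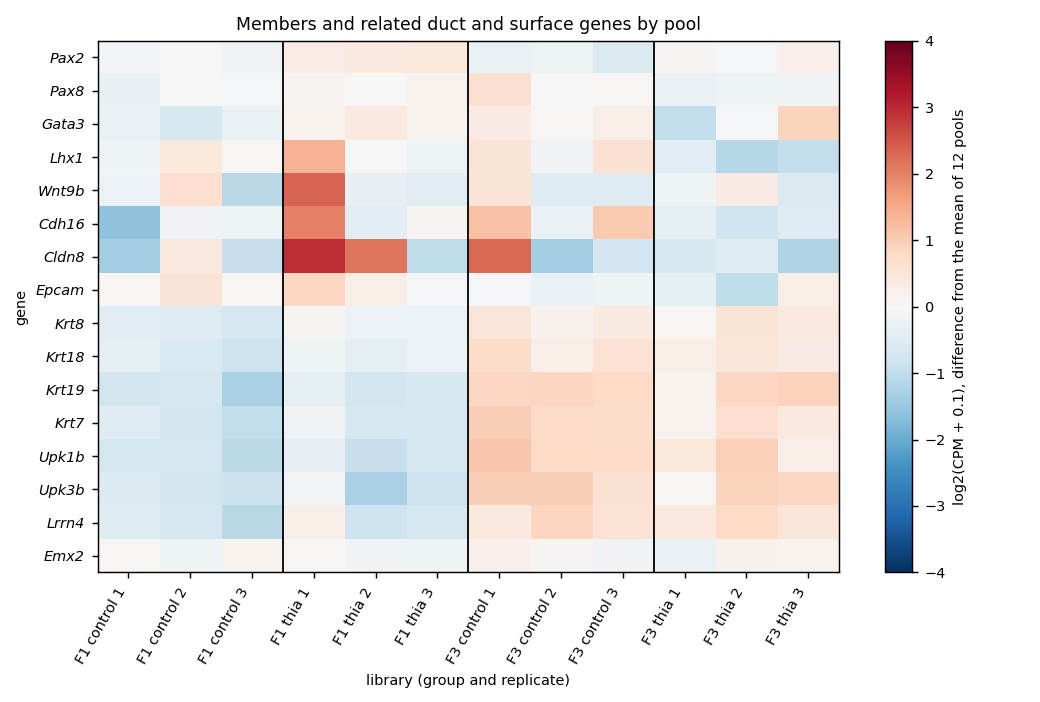
Each cell is the log2(CPM + 0.1) of a gene in a library minus its mean over the 12 libraries, from blue (lower) to red (higher), with black lines between groups. *Lhx1*, *Epcam* and the 3 genes drawn between them, which were picked for their peak, are red in F1 *thia* pool 1, and the keratins with the surface genes *Upk1b*, *Upk3b* and *Lrrn4* are mostly blue in the F1 libraries and mostly red in the F3 libraries.

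Related gene lists were set beside the members in F1. Among all genes tested there, 8.76% had an unadjusted p under 0.05 in edgeR, and 4.63% had such a p and were higher. DESeq2 called 0.985% of the genes. Of 29 tested genes among 30 other genes of the duct and tubule programme, 3 were higher and 3 lower at an unadjusted p under 0.05, with 0 called in edgeR and 0 higher and 2 lower in DESeq2. *Foxi1*, a forkhead factor of epithelial cells that move ions, was higher, with 0.291 CPM in the controls and 0.861 CPM in the exposed pools on average and a log2 fold change of 1.56 (SE 0.35). *Sall1*, a zinc finger factor of kidney progenitors, was lower, at 2.87 and 1.501 CPM, with a log2 fold change of -0.93 (SE 0.23). Of 38 epithelial junction and adhesion genes, 10 were higher and 3 lower at p under 0.05, with 0 called in edgeR and 2 higher and 1 lower in DESeq2. The smallest p among them was that of *Perp*, a desmosome protein, at 3.29 ± 0.51 CPM in the controls and 5.94 ± 0.52 CPM in the exposed pools (SD, n = 3). The log2 fold change of *Perp* was 0.87 and its DESeq2 adjusted p 0.00605. Of 14 genes of the surface epithelium and mesothelium, a list that holds *Krt19*, 0 were called by either tool and 0 had a p under 0.05. Their summed level was 773 to 866 CPM in the controls and 721 to 955 CPM in the exposed pools. Of 12 germ cell genes, 11 had a negative log2 fold change and 7 of them a p under 0.05, with 0 called in edgeR and 5 in DESeq2. Their summed level was 1315 to 1754 CPM in the controls and 1147 to 1342 CPM in the exposed pools. Whether the lower germ cell RNA or the muscle RNA of exposed pool 2 had a part in the higher values of the members was not tested.

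In F3, no member passed the test between the *thia* and control lineages. *Pax2* was higher, and *Pax8* and *Lhx1* were lower, in every *thia* pool than in any control pool, and the other 6 members overlapped between the groups. Of the 8 members that passed the low-count filter, 2 had a positive and 6 a negative log2 fold change, with a median of -0.09 against 0.004 over all genes tested. In edgeR 0 members were called, and 0% of all genes. The smallest edgeR adjusted p over all genes was 0.1006, just above the threshold of 0.1. At an unadjusted p under 0.05 there were 0 members, against 21.1% of all genes tested. DESeq2 also called 0 members, where it called 17.1% of the genes. The groups did not overlap for 2 of the 8 tested members, against 27.3% of all genes.

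*Pax2* had 1.36, 1.40 and 1.06 CPM in F3 control pools and 1.77, 1.55 and 1.90 CPM in F3 *thia* pools. The *thia* pools lay above the controls, by a margin smaller than the spread within each group. The log2 fold change was 0.45 (SE 0.21, 95% interval -0.04 to 0.94, edgeR adjusted p = 0.267). *Pax8* had 13.2, 8.36 and 8.58 CPM in the controls and 6.996, 7.25 and 7.65 CPM in the *thia* pools. Control pool 1 was the highest of the 12 pools, and the other controls lay just above the *thia* pools. In *Pax8* the log2 fold change was -0.46 (SE 0.20, 95% interval -0.92 to 0.01, edgeR adjusted p = 0.241). Without control pool 1 it was -0.22. Without *thia* pool 2, which stood apart from its group, the log2 fold change was 0.53 for *Pax2* and -0.45 for *Pax8*.

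*Lhx1* did not pass the filter in F3, so it has no test there. It had 13, 8 and 16 counts in F3 control pools and 7, 2 and 5 counts in F3 *thia* pools, or 0.403, 0.216 and 0.425 CPM against 0.159, 0.0575 and 0.0749 CPM. The *thia* pools were the lowest 3 of the 12 pools. With no filter the log2 fold change was -1.79, with an edgeR adjusted p of 0.149. *Cdh16* was lower with it, at 2.27 ± 1.07 CPM in the controls and 0.848 ± 0.139 CPM in the *thia* pools (SD, n = 3). Its log2 fold change was -1.41 (SE 0.40, edgeR adjusted p = 0.132, DESeq2 adjusted p = 0.0246). DESeq2 called 17.1% of all genes in this comparison. The duct and tubule list that holds *Cdh16* did not go 1 way. Of its 29 tested genes, 16 had a positive and 13 a negative log2 fold change, with a median of 0.07.

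The keratins and *Epcam* did not differ beyond the spread of the F3 pools. *Krt8* had 81.8, 67.2 and 75.9 CPM in the controls and 62.9, 86.8 and 77.1 CPM in the *thia* pools, with a log2 fold change of 0.01 (95% interval -0.30 to 0.32). *Krt18* had 69.3, 50.3 and 62.8 CPM and 49.4, 58.2 and 52.8 CPM, with a log2 fold change of -0.19 (95% interval -0.49 to 0.12). The intervals leave room for a difference in either direction. *Krt19* had 115, 116 and 112 CPM in the controls and 71.1, 115 and 122 CPM in the *thia* pools, with a log2 fold change of -0.15 (95% interval -0.60 to 0.29), and *thia* pool 1 was the low one. *Epcam* had 19.6, 16.9 and 17.7 CPM and 15.49, 9.84 and 24.4 CPM, with a log2 fold change of -0.12 (95% interval -0.81 to 0.57). *Thia* pool 2 was the lowest of the 12 pools, and without it the *Epcam* log2 fold change was 0.15. That pool also had the lowest sum of germ cell genes of the 12 pools, at 516 CPM. The other F3 *thia* pools had 660 and 989 CPM. The part of this in the *Epcam* value was not tested.

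*Gata3* was spread widely over the F3 *thia* pools, and *Emx2* was not. *Gata3* had 1.77, 1.48 and 1.67 CPM in the controls and 0.659, 1.35 and 2.65 CPM in the *thia* pools, which held both the lowest and the highest of the 12 values. Its log2 fold change was -0.06 (95% interval -1.14 to 1.02), and without *thia* pool 1 it was 0.29. *Emx2* had 41.5, 39.5 and 33.1 CPM in the controls and 29.9, 41.4 and 40.4 CPM in the *thia* pools, with a log2 fold change of -0.03 (95% interval -0.37 to 0.31). *Thia* pool 1 was the lowest of the 12 pools for both genes. In the same pool the surface genes were low, with 943 CPM summed over 13 genes other than *Krt19*, against 1135 to 1343 CPM in the F3 controls and 1150 and 1303 CPM in the other *thia* pools. The part of this in the low values was not tested.

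The related lists in F3 held 0 calls in edgeR, where 0% of all genes were called. Of 16 other keratins, 0 were higher and 4 lower at an unadjusted p under 0.05, and DESeq2 called the same number lower. Among all genes 21.1% had such a p and DESeq2 called 17.1%. These shares hold both directions, so they cannot be set directly against the 4 lower keratins. *Krt17*, a type I keratin, was at 12.6 ± 1.7 CPM in the controls and 8.201 ± 0.93 CPM in the *thia* pools (SD, n = 3). Its log2 fold change was -0.62 (SE 0.15, edgeR adjusted p = 0.109, DESeq2 adjusted p = 0.00775). *Krt14*, a keratin of basal epithelial cells, was at 23.0 ± 1.6 and 15.51 ± 3.6 CPM, with a log2 fold change of -0.57 (DESeq2 adjusted p = 0.0306). Of the duct and tubule genes, 3 were higher and 4 lower at p under 0.05, and DESeq2 called 2 higher and 4 lower, among the lower ones *Itga8*, an integrin of kidney mesenchyme (log2 fold change -0.40). Of the epithelial junction genes, 2 were higher and 3 lower by both measures. In the same pools all 9 Leydig cell genes had a positive log2 fold change, with a median of 0.60, and DESeq2 called 5. Of 12 germ cell genes, 11 had a negative log2 fold change, with a median of -0.48 and 0 called by DESeq2. Of 8 endothelial genes, 7 had a positive log2 fold change, with a median of 0.46, and DESeq2 called 5. The median over 14 Sertoli cell genes was 0.36, with 9 positive and 5 negative log2 fold changes. The part of these cell types in the values of the members was not tested.

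**Figure D4:**
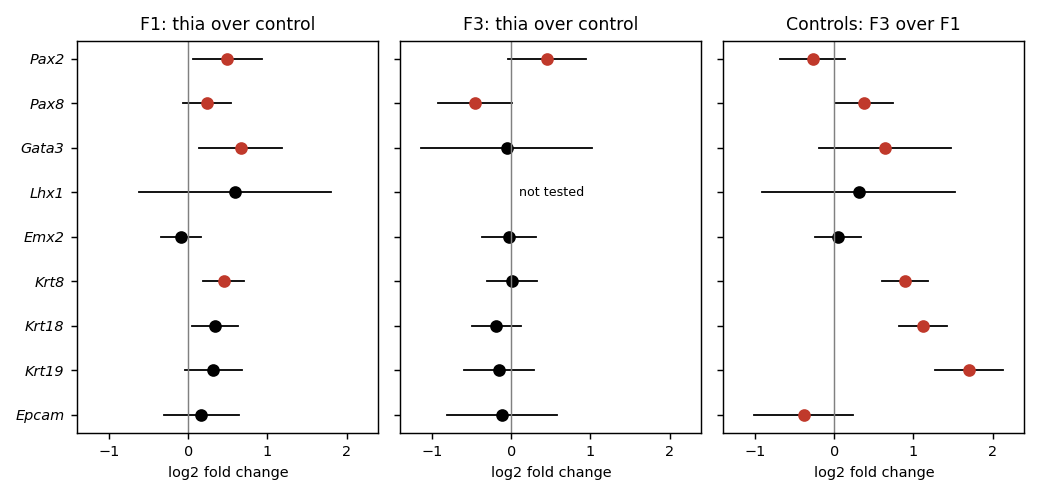
Log2 fold change of each member with its 95% interval from edgeR for *thia* over control in F1 and in F3 and for F3 control over F1 control. Red points mark genes whose groups do not overlap. Most F1 points lie right of 0, F3 points lie on both sides with *Pax2* and *Pax8* opposite, and the keratins lie far to the right among the controls.

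The effect of *thia* in F3 minus its effect in F1 was tested in 1 fit of the 12 libraries. The difference was negative for 8 of the 9 members, with a median of -0.45 against 0.02 over all genes. In edgeR 0 members were called, and 0.00510% of all genes. At an unadjusted p under 0.05, 4 members (*Lhx1*, *Pax8*, *Krt18* and *Krt8*) were there, against 14.0% of all genes, and all 4 were lower, against 6.10% of all genes. DESeq2 called 1 member, *Pax8*, where it called 5.67% of the 12770 genes that had an adjusted p there. *Pax2*, *Gata3* and *Lhx1* had no DESeq2 adjusted p. As in F1, these counts beside the shares of all genes are a description, not a test.

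*Pax8* had a difference of -0.68 (SE 0.24, 95% interval -1.19 to -0.16), with an adjusted p of 0.259 in edgeR and 0.0990 in DESeq2. Its *thia* pools lay above the controls in F1 and below them in F3. Without F3 control pool 1, its highest pool, the difference was -0.44. *Pax2*, its paralog, differed by -0.02 (95% interval -0.59 to 0.54), and its *thia* pools lay above the controls in both generations. For *Lhx1* the difference was -2.38 (SE 0.83, edgeR adjusted p = 0.259), and it was -1.47 without F1 *thia* pool 1. For *Krt8* it was -0.42 (SE 0.19) and for *Krt18* -0.51 (SE 0.19), with edgeR adjusted p of 0.336 and 0.282. Without F1 *thia* pool 1 the *Krt8* difference was -0.30, and without F3 *thia* pool 1 it was -0.28. The *Gata3* difference, -0.70, had a 95% interval of -1.85 to 0.45.

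The sequence upstream of *Pax8* is shown because *Pax8* was the member that DESeq2 called for the difference between the generations. The gene lies at chr2:24420560-24475599 on the minus strand (GENCODE M21, mm10), and its RefSeq promoter, cut to the same 200 bases before the start as those of the keratins, lies at chr2:24475650-24475849 (GRCm38.p6). Capitals mark a GC box, read here on the opposite strand, 174 bases before the start and a CCAAT box 53 bases before it.
Pax8: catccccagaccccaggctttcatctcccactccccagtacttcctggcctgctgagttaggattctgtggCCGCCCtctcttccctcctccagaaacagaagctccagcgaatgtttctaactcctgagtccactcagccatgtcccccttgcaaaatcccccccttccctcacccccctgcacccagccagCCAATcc
The stretch holds 59% G and C and no AP-1 site. These matches are of letters only, and whether any factor binds there was not measured in these libraries.

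The differences of the set that passed the test in edgeR were between the controls of F3 and F1. In F3 controls the keratins were higher than in F1 controls, by a log2 fold change of 0.89 (SE 0.13, edgeR adjusted p = 0.00059) for *Krt8*, 1.12 (SE 0.14, edgeR adjusted p = 0.000221) for *Krt18* and 1.70 (SE 0.20, edgeR adjusted p = 0.000184) for *Krt19*. *Krt8* had a mean of 40.3 ± 3.6 CPM in F1 controls and 75.0 ± 7.4 CPM in F3 controls (SD, n = 3). *Krt18* had 27.9 ± 4.6 and 60.8 ± 9.6 CPM, and *Krt19* had 35.0 ± 7.8 and 114 ± 2.1 CPM. For each of these genes the 3 F3 controls lay above the 3 F1 controls. These 3 were the members called in edgeR, all higher, where 42.3% of all genes tested were called and 19.9% were higher. The groups did not overlap for 7 of the 9 members, against 48.8% of all genes, so such differences were common over the genes as a whole. DESeq2 called 4 members, these and *Pax8*, where it called 41.8% of the genes.

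None of the transcription factors passed the threshold in edgeR between the controls with all 12 libraries, though some did when a library was left out. *Pax8* had a log2 fold change of 0.38 (SE 0.17, edgeR adjusted p = 0.102), just outside the threshold of 0.1, and *Gata3* of 0.64 (SE 0.38, edgeR adjusted p = 0.217). Without F3 control pool 2 or 3 the edgeR adjusted p of *Pax8* was 0.0578 or 0.0770, and without F3 *thia* pool 1 or 3, which enter the shared estimate of spread, that of *Gata3* was 0.0902 or 0.0886. Other settings moved them the other way. With each library left out in turn, the log2 fold change ranged from 0.14 to 0.49 for *Pax8* and from 0.50 to 0.72 for *Gata3*. Over all settings the edgeR adjusted p rose to 0.472 for *Pax8* and 0.431 for *Gata3*. *Pax2* had -0.27 (SE 0.19) and *Epcam* -0.39 (SE 0.29), and for both genes the F3 controls lay below the F1 controls. *Lhx1*, at 0.31 (95% interval -0.91 to 1.52), and *Emx2*, at 0.05 (95% interval -0.25 to 0.34), overlapped between the controls.

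Genes of the surface epithelium and mesothelium were higher in the same libraries. Of the 14 genes of that list, *Krt19* included, 10 were called higher in F3 controls and 0 lower, with a median log2 fold change of 1.35. Among all genes tested 42.3% were called in edgeR and 19.9% were called higher, and these shares stand beside every count of calls below. Without *Krt19* their sum was 735 to 827 CPM in F1 controls and 1135 to 1343 CPM in F3 controls. *Rspo1*, a secreted Wnt agonist, had 21.9 ± 2.2 CPM in F1 controls and 56.8 ± 9.9 CPM in F3 controls (SD, n = 3), and *Upk1b*, a membrane protein of urothelium and mesothelium, had 13.1 ± 2.0 and 42.6 ± 5.3 CPM. Of the 16 other keratins, 9 were called higher and 2 lower. *Krt7*, a type II keratin of simple epithelia, had a log2 fold change of 1.55 (SE 0.18). Of the duct and tubule genes, 5 were called higher and 8 lower, and of the epithelial junction genes 4 were higher and 7 lower. Blood genes were higher as well, with 7 of 9 called and sums of 62354 to 67122 CPM in F3 controls against 5271 to 15557 CPM in F1 controls. Of 14 Sertoli cell genes 9 were called lower, and of 12 germ cell genes 6. The part of these cell types in the keratin difference was not tested, and the libraries of F1 and F3 differ as a set.

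The order of the 4 group means differed between the members. For *Krt8* the order was F1 control, F1 *thia*, F3 control, F3 *thia*, and only the last pair of neighbours overlapped. For *Krt18* and *Krt19* the order was F1 control, F1 *thia*, F3 *thia*, F3 control, with a gap without overlap between the generations. For *Pax2* the order was F3 control (1.28 ± 0.19 CPM), F1 control (1.54 ± 0.07 CPM), F3 *thia* (1.74 ± 0.18 CPM) and F1 *thia* (2.15 ± 0.11 CPM, SD, n = 3), and the middle pair overlapped. For *Pax8* it was F3 *thia* (7.30 ± 0.33 CPM), F1 control (7.72 ± 0.79 CPM), F1 *thia* (8.98 ± 0.38 CPM) and F3 control (10.0 ± 2.7 CPM), where the middle pair did not overlap. *Emx2* and *Gata3* overlapped between all neighbours. *Lhx1* had F3 *thia* apart at the bottom, and *Epcam* had lower means in both F3 groups than in both F1 groups, with no overlap between F3 control and F1 control.

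Within a generation the members were compared pair by pair over 6 pools, which hold both treatments. Of the 36 pairs, 28 had a positive Pearson r of log2 CPM in F1 and 25 in F3. In F1 the highest was *Lhx1* with *Epcam* (r = 0.95, Spearman rho = 0.83, exact permutation p = 0.00833, adjusted p = 0.217 over 36 pairs), and without the 2 pools farthest from the median of *Lhx1* r was 0.61. *Krt8* with *Krt18* came next (r = 0.90, rho = 0.94, exact permutation p = 0.0181, adjusted p = 0.217), and r was 0.73 without the 2 farthest pools. *Krt18* with *Krt19* had r = 0.89 (rho = 0.77, exact permutation p = 0.0181, adjusted p = 0.217), which was 0.09 without the 2 farthest pools, so it rested on those. In F3 no pair had an adjusted p below 0.425 in the exact permutation test. The highest r there was *Gata3* with *Krt19*, 0.91 (rho = 0.71, exact permutation p = 0.0236, adjusted p = 0.425), and it was -0.39 without the 2 farthest pools.

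Over the 12 pools, the genes with the pattern most like each member were searched among the 18229 genes tested in both generations, as a description with no test. *Krt8* was most like *Xpnpep2* (r = 0.98) and *Dram1* (r = 0.97). *Use1* was among the 2 genes most like *Krt18* (r = 0.99), and *Krt19* most like *Fau* and *Rpl41* (r = 0.98 each). *Fau* and *Rpl41* encode ribosomal proteins, and the r values of the keratins contain the gap between the F1 and F3 library sets. *Pax2* was most like *Cfap46* (r = 0.96), and *Gata3* most like *Rassf10* (r = 0.87). *Lhx1* was most like *Plat* (r = 0.91), *Epcam* most like *Slc12a5* (r = 0.90), *Emx2* most like *Ccdc89* (r = 0.89) and *Pax8* most like *Llph-ps2* (r = 0.83). In none of the 9 cases was another member among the 2 most alike genes.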

How the data were processed

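RNA was measured in 12 libraries, 3 per group. Per the submitters' processing notes, reads were handled with bcl2fastq 2.20.0.422, mapped to mm10 with HISAT2 2.1.0 and counted per gene with featureCounts, and the authors used DESeq2 2.11.40.7. The authors deposited 1 table of raw counts per library, over 35976 gene symbols. The paper reports strand-specific libraries and paired-end sequencing, with mapping set to paired-end mode and the reverse strand. Whether featureCounts counted reads or read pairs, and its strand setting, are not given in the sources used here. Here, counts were filtered with filterByExpr at a minimum count of 10, scaled by TMM and tested with edgeR 4.0.16 in R 4.3.3 (limma 3.58.1 loaded) by the quasi-likelihood test, over 19137 genes in F1, 18539 in F3 and 19626 in the fit of 12 libraries. DESeq2 1.42.0 was an alternative. Log2 CPM used a prior count of 2. Exact permutation tests used scipy 1.17.1 and were two-sided. Lengths and positions came from GENCODE M21, not from the refGene annotation that the paper used for counting. The alternatives were other scaling, filters, tests and thresholds, a replicate block and leaving out each library. The pipeline was tested on simulated data. The members and gene lists were chosen with earlier results of these data known. Named are the members, at most 3 genes with the smallest p per list and comparison, and the 2 genes most alike to each member. *Upk3b* and *Lrrn4* were chosen after their values were seen. *Wnt9b* and *Cldn8* are named for levels near 0. Some genes that this rule selects are not reported here.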

Additional observations from a re-analysis of the deposited data

Results flagged for a closer look

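For *Pax8* all 3 *thia* pools lay above all 3 controls in F1 and below all 3 controls in F3, though neither difference passed the test (edgeR adjusted p = 0.624 in F1 and 0.241 in F3). The difference between the effects was tested and did not pass in edgeR. The F3 effect minus the F1 effect was -0.68 on the log2 scale (edgeR adjusted p = 0.259, DESeq2 adjusted p = 0.0990).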

How the results depend on the processing

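The count of members called in F1 was 0 and became 1 (*Krt8*) with no low-count filter (edgeR adjusted p = 0.113) and with DESeq2, while the calls over all genes went from 2 of 19137 to 243 of 31148 and to 170 of 17265. The count for the F3 effect minus the F1 effect was 0 and became 1 with DESeq2 (*Pax8*). The calls over all genes were 1 of 19626 and 724 of 12770. The count of members called in F3 stayed 0 under every setting. There the edgeR calls over all genes went from 0 of 18539 to 569 of 30715 with no low-count filter. With all 12 libraries in 1 fit they were 1936 of 19626. Positive pairs among the 36 correlations in F3 numbered 25 and then 14 without the 2 farthest pools, which leaves 4 pools. Small log2 fold changes turned sign, and the cause was not tested. By setting, *Krt8* in F3 was -0.022 with upper quartile scaling, *Gata3* in F3 was 0.0013 with bias-adjusted deviances, and for the F3 effect minus the F1 effect *Emx2* was -0.00042 with upper quartile scaling and *Pax2* was 0.013 with no low-count filter. Leaving out 1 library at a time, *Lhx1* ranged from -0.33 to 0.95 and *Epcam* from -0.13 to 0.35 in F1, both lowest without F1 *thia* replicate 1. In F3, *Gata3* ranged from -0.72 to 0.29, *Emx2* from -0.12 to 0.093, *Krt8* from -0.098 to 0.12, *Krt19* from -0.30 to 0.041 and *Epcam* from -0.52 to 0.15. For the F3 effect minus the F1 effect, *Pax2* ranged from -0.14 to 0.052, *Emx2* from -0.015 to 0.24 and *Epcam* from -0.66 to 0.024. Between the controls, *Emx2* ranged from -0.040 to 0.14. The *Pax8* difference between controls passed the threshold with DESeq2 (adjusted p = 0.0708), DESeq2 size factors, upper quartile scaling and at least 10 counts in every library, and without F3 control replicate 2 or 3. With each library left out in turn its log2 fold change ranged from 0.14 to 0.49, and over all settings its edgeR adjusted p rose to 0.472. The *Gata3* difference passed without F3 *thia* replicate 1 or 3. Deviations of same-numbered control and *thia* pools had correlations of -0.03, -0.03 and 0.02 in F1 and 0.23, -0.42 and -0.27 in F3. Differently numbered pools had -0.07 to 0.09 in F1 and -0.42 to 0.51 in F3. These values cannot show whether same-numbered pools share an origin, and the labels do not say. The replicate block called 0 members in F1, 0 in F3, 0 for the difference and 3 between controls, and over all genes 3 of 19137, 0 of 18539, 0 of 19626 and 7713 of 19626. Depth limits *Lhx1* most, with 2 to 43 counts per library.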
